A study of Mus musculus with 8 samples.

Results

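Gene expression was set side by side between mouse adipocyte cultures that had received an inhibitor of miR-203 and cultures that had received an inhibitor of miR-708. The members are the 12811 genes, of 18933 in the deposited tables, that reached an FPKM of at least 1 with either inhibitor. FPKM is a level scaled for transcript length and library size. The difference between the inhibitors is given as log2((miR-203 inhibitor FPKM + 1) / (miR-708 inhibitor FPKM + 1)), called the log2 ratio below, so a positive value means higher with the miR-203 inhibitor. A further 6122 genes stayed below the minimum in both groups. Zfp90 lay just inside it, at 0.945 FPKM with the miR-203 inhibitor and 1.00 FPKM with the miR-708 inhibitor. Lmo7 lay just outside, at 0.863 and 0.999 FPKM in the same order.

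The contrast takes 4 of the 8 samples, 2 that received the miR-203 inhibitor and 2 that received the miR-708 inhibitor. Both inhibitors were locked nucleic acids (LNAs), chemically stiffened oligonucleotides that pair with a microRNA and block it, transfected at 100 nM into primary preadipocytes. The cells were stromal vascular cells from collagenase-digested fat. After 8 h they went into full medium, were driven into differentiation with an induction mix (rosiglitazone, insulin, IBMX and dexamethasone), and were harvested on day 4. All groups share this induction. The labels name neither the fat depot nor the strain, genotype, age or sex of the mice, and the series title speaks of brown adipocytes. Whether samples in the same group represent different mice or different dishes is not stated either. The miR-182 inhibitor group and the transfected control group, 2 samples each, stand outside the contrast. Their values are given only to place the values of the contrast. What the control cells were transfected with is not stated beyond the label.

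Each group has 1 FPKM per gene in the deposited tables, taken as the authors' value pooled over its 2 samples. There is therefore no spread between replicates, no SD and no test for the contrast, and the sequencing depth is unknown. A gene is called past the limit when its log2 ratio corresponds to at least 1.5-fold in either direction, which is a rule of size only. The words rose and fell are kept for changes against the control to which the authors' deposited table gives a q-value below 0.05. Of the genes tested in the authors' deposited tables, 4.72% rose and 2.51% fell with the miR-203 inhibitor, and 4.51% rose and 3.05% fell with the miR-708 inhibitor.

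MicroRNAs are short RNAs that guide Argonaute proteins to messenger RNAs, mainly by pairing of their seed, the bases near the 5′ end, with matches in the 3′ untranslated region. Pairing usually lowers the messenger, so blocking a microRNA is generally expected to raise messengers that carry matches. Brown adipocytes burn fat for heat through the uncoupling protein Ucp1, and they arise from precursors that also make extracellular matrix.

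The mature sequences of both microRNAs are shown because their seeds define which messengers each inhibitor could release. They were taken from RefSeq (GRCm38.p6). Capitals mark bases 2 to 8, the seed. The labels do not say which arm of the hairpin an inhibitor was made against, so both arms are given.
miR-203-3p: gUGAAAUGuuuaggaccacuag
miR-203-5p: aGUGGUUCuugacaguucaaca
miR-708-5p: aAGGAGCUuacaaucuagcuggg
miR-708-3p: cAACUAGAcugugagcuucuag
The 4 seeds all differ. The seed of miR-708-5p is shared with miR-28a-5p, and no other mature mouse microRNA in the RefSeq table shared the seed of miR-203-3p. The miR-203 gene lies on chromosome 12 and the miR-708 gene on chromosome 7, inside the protein-coding gene Tenm4. Tenm4 stood at 22.7 FPKM with the miR-203 inhibitor and 18.97 FPKM with the miR-708 inhibitor, against 29.5 FPKM in the control, with a log2 ratio between the inhibitors of 0.25. Levels of the mature microRNAs were not analysed here.

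Adipocyte markers were high in both groups. The fatty acid carrier Fabp4 stood at 37047 FPKM with the miR-203 inhibitor and 42888 FPKM with the miR-708 inhibitor. Adipoq, the hormone adiponectin, stood at 1644 and 1601 FPKM in the same order, and the lipid droplet protein Cidec at 1741 and 1663 FPKM. Brown fat markers were present as well, with Cox8b, a respiratory chain subunit, at 631 FPKM with the miR-203 inhibitor and 589 FPKM with the miR-708 inhibitor. Markers of other cell types were measured in part. Of 13 macrophage markers 2 were measured, of 10 endothelial markers 1 and of 8 mesothelial markers 1. The macrophage list summed to 7.54 FPKM with the miR-203 inhibitor and 6.02 FPKM with the miR-708 inhibitor. For the endothelial list the sums were 23.8 and 26.9 FPKM in the same order. The endothelial marker measured was Egfl7, at 21.3 FPKM with the miR-203 inhibitor and 23.6 with the miR-708 inhibitor. Smooth muscle and pericyte markers (7 of 11 measured, led by the actin gene Acta2 at 18.9 and 17.0 FPKM) summed to 49.3 FPKM with the miR-203 inhibitor and 46.5 FPKM with the miR-708 inhibitor, skeletal muscle markers (4 of 13) to 10.9 and 12.2 FPKM, and neural and glial markers (3 of 7) to 12.9 and 14.3 FPKM. No member of these lists passed the limit. In such bulk samples, fewer cells of a type and less RNA per cell cannot be told apart.

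Most genes stood at nearly the same level with both inhibitors. The median log2 ratio over the 12811 measured genes was 0.0085, and the central 90% lay between -0.30 and 0.36. Past 1.5-fold, 264 genes (2.06%) were higher with the miR-203 inhibitor and 171 (1.33%) were lower, together 435 genes or 3.40%. Past 2-fold, 104 genes (0.812%) were higher and 48 (0.375%) were lower. Counted in the same way, 4.74% of genes passed 1.5-fold between the miR-182 and miR-203 inhibitors and 3.30% between the miR-182 and miR-708 inhibitors. Against the control the share was 6.66% for the miR-203 inhibitor, 6.61% for the miR-708 inhibitor and 12.3% for the miR-182 inhibitor. These comparisons share groups with one another, so the shares are given side by side and not tested.

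**Figure D1:**
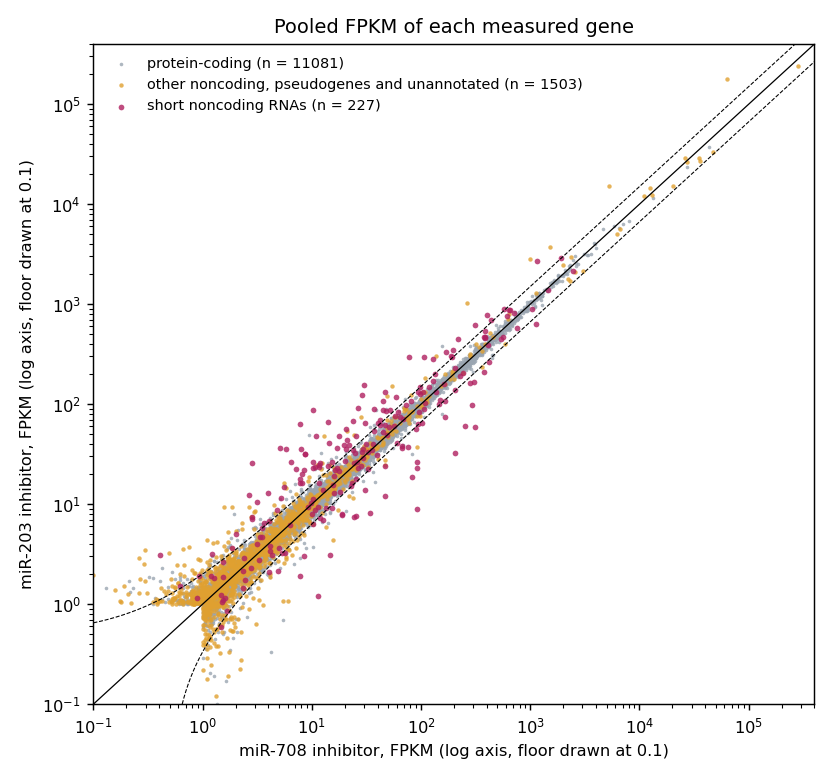
Level of each of the 12811 measured genes with the miR-203 inhibitor (vertical) against the miR-708 inhibitor (horizontal), 1 pooled FPKM per group on log axes, values under 0.1 drawn at 0.1; the solid line marks equal levels and the dashed lines the limit of 1.5-fold on FPKM + 1. The 227 short noncoding RNAs scatter far more widely than the 11081 protein-coding genes.

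Short noncoding RNAs lay farther from equality than protein-coding genes. The short noncoding classes (small nucleolar, small nuclear, microRNA, short nuclear ribosomal, RNase P and RNase MRP, and other small RNA genes) made up 227 of the measured genes, or 1.77%. They gave 119 of the 435 genes past the limit, or 27.4%, with 79 higher with the miR-203 inhibitor and 40 lower. Protein-coding genes made up 86.5% of measured genes and 34.5% of those past the limit. Of the 11081 protein-coding genes, 87 (0.785%) were higher and 63 (0.569%) were lower with the miR-203 inhibitor, together 1.35%.

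Within the short classes, 55 of 112 small nucleolar RNA genes passed the limit (34 higher, 21 lower), and so did 44 of 67 microRNA genes (29 higher, 15 lower). All 5 short nuclear ribosomal RNA genes were higher, with log2 ratios between 1.03 and 1.47. Small nuclear RNA genes passed in 5 of 18 cases, 2 higher and 3 lower. Pseudogenes passed in 81 of 465 cases, split evenly at 41 higher and 40 lower, and antisense RNAs in 24 of 386. How RNAs were selected for the libraries is not given in the sources used here, and the part of library preparation in these differences was not tested. Among the 79 short RNAs that were higher with the miR-203 inhibitor, the miR-203 inhibitor value also lay above both the miR-182 inhibitor and the control value in 57. The miR-708 inhibitor value lay below both of them in 47. Among the 40 that were lower, the miR-203 inhibitor value lay below both other groups in 24, and the miR-708 inhibitor value lay above both in 20. These genes were chosen by the difference between the inhibitors, which itself favours an extreme place for either value. No such count over all measured genes is given here, so which inhibitor group departed was not tested.

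**Figure D2:**
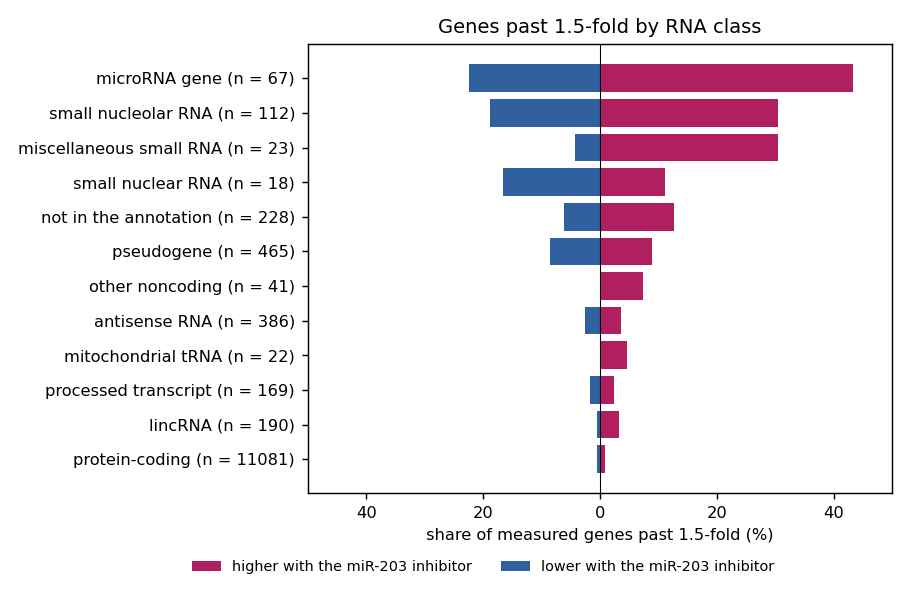
Share of measured genes past 1.5-fold for each RNA class with at least 15 measured genes, higher with the miR-203 inhibitor to the right and lower to the left (linear axis in percent). MicroRNA genes (43.3% higher, 22.4% lower) and small nucleolar RNA genes (30.4% and 18.8%) stand far outside protein-coding genes (0.785% and 0.569%).

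Among the gene lists, that of structural RNAs held the most members past the limit. Of 17 listed structural and long noncoding RNAs, 9 were measured, and 4 passed the limit, all higher with the miR-203 inhibitor. These 4 are short RNAs made by RNA polymerase III. Of all 227 measured short noncoding RNAs, 34.8% were higher past the limit and 17.6% lower, against 2.06% and 1.33% of all measured genes. Whether these 4 differ from their class was not tested. Rny1, a Y RNA bound by the Ro protein, stood at 88.1 FPKM with the miR-203 inhibitor and 10.2 FPKM with the miR-708 inhibitor, against 35.2 FPKM with the miR-182 inhibitor and 5.57 FPKM in the control. Rmrp, the RNA of the ribosomal RNA processing enzyme RNase MRP, stood at 36.0 FPKM with the miR-203 inhibitor, 7.98 with the miR-708 inhibitor, 8.38 with the miR-182 inhibitor and 7.93 in the control. Rn7sk, the RNA that holds the elongation factor P-TEFb inactive, stood at 32.0 FPKM with the miR-203 inhibitor, 8.65 with the miR-708 inhibitor, 8.79 with the miR-182 inhibitor and 11.4 in the control. For Rmrp and Rn7sk the miR-203 inhibitor group stood alone and the other 3 groups lay close together.

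Rpph1, the RNA of RNase P, which trims transfer RNAs, was likewise highest with the miR-203 inhibitor, at 31.6 FPKM with the miR-203 inhibitor, 8.67 with the miR-708 inhibitor, 6.12 with the miR-182 inhibitor and 9.11 in the control. The log2 ratios were 3.00 for Rny1, 2.04 for Rmrp, 1.78 for Rn7sk and 1.75 for Rpph1. In the authors' deposited table Rn7sk and Rpph1 rose with the miR-203 inhibitor (q = 0.00176 for each) and were not called with the miR-708 inhibitor (q = 0.577 and 0.992). Rny1 (q = 0.729) and Rmrp (q = 0.169) were not called for the miR-203 inhibitor in the authors' deposited table. The long members of the list differed little between the inhibitors, with log2 ratios of 0.04 for Malat1 and 0.16 for Neat1, RNAs of nuclear bodies, and -0.07 for the imprinted H19. Those long RNAs stood at 197, 703 and 73.9 FPKM with the miR-203 inhibitor and at 192, 631 and 77.6 FPKM with the miR-708 inhibitor. Neat1 stood at 1045 FPKM in the control. It fell with the miR-203 inhibitor (q = 0.0181) and the miR-708 inhibitor (q = 0.00176) in the authors' deposited tables. Malat1, at 211 FPKM in the control, was not called with either.

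A set of further loci had log2 ratios near 1.5. It was picked out after the values were seen, through the rule for genes called in 1 deposited table only. Mir5105 stood at 178253 FPKM with the miR-203 inhibitor, 62653 with the miR-708 inhibitor, 61714 with the miR-182 inhibitor and 66947 in the control. Gm15662 stood at 15306 FPKM with the miR-203 inhibitor, 5293 with the miR-708 inhibitor, 5881 with the miR-182 inhibitor and 5995 in the control. The long intergenic RNA RP23-81C12.3, named Gm42418 in the GENCODE annotation, stood at 2823 FPKM with the miR-203 inhibitor, 988 with the miR-708 inhibitor, 761 with the miR-182 inhibitor and 910 in the control. In all 3 the miR-203 inhibitor group stood alone, as for Rn7sk and Rmrp. Mir5105 and Gm15662 are not in the GENCODE annotation used here. Each of these 3 shares its locus with other genes in the deposited tables, and reads may have been divided between them.

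Gm15564, on chromosome 16, stood at 151 FPKM with the miR-203 inhibitor, 53.7 with the miR-708 inhibitor, 45.9 with the miR-182 inhibitor and 63.7 in the control. Its locus is shared with other genes as well. The log2 ratios of these 4 loci lay close together, at 1.51 for Mir5105, 1.53 for Gm15662, 1.51 for RP23-81C12.3 and 1.47 for Gm15564. The authors' deposited table called each of them higher with the miR-203 inhibitor and none with the miR-708 inhibitor. These calls were the rule by which the loci were picked, so they add no support. Lars2, the gene of the mitochondrial leucyl-tRNA synthetase, showed a like pattern, with a log2 ratio of 1.26. It stood at 378 FPKM with the miR-203 inhibitor, 157 with the miR-708 inhibitor, 151 with the miR-182 inhibitor and 147 in the control. Whether the reads counted for Lars2 and for these 4 loci came from their own transcripts alone was not tested. The Lars2 value is therefore not read as a level of its messenger. RP23-81C12.1, the next gene before RP23-81C12.3 on the plus strand of chromosome 17, stood at 49.7 FPKM with the miR-203 inhibitor, 24.1 with the miR-708 inhibitor, 31.1 with the miR-182 inhibitor and 21.0 in the control. The short nuclear ribosomal RNA gene n-R5s115 stood at 41.3 FPKM with the miR-203 inhibitor, 14.3 with the miR-708 inhibitor, 4.82 with the miR-182 inhibitor and 13.9 in the control. For n-R5s202, in contrast, the 55.9 FPKM of the miR-203 inhibitor and the 20.7 FPKM of the miR-708 inhibitor both lay below the control value of 88.0 FPKM.

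Ranked over all genes with at least 5 FPKM in either group, the 12 largest positive log2 ratios were those of Rny1, Mir1191, Gm26347, Mir215, Gm24888, Snord55, Gm21961, Snord14a, Snord23, Rmrp, Gm26447 and Gm11619, from 3.00 down to 2.02. Of these, 10 are short noncoding RNA genes, 1 is a pseudogene and 1, Gm21961, is protein-coding. The authors' deposited tables called none of these 12 against the control with either inhibitor. Some may not have been tested there. The deposited q-value can stand for a missing test for Gm26447 with both inhibitors, and for Rny1 and Gm21961 with the miR-708 inhibitor. Mir1191 stood at 62.7 FPKM with the miR-203 inhibitor, 7.81 with the miR-708 inhibitor, 19.5 with the miR-182 inhibitor and 52.3 in the control. Mir215 stood at 36.8 FPKM with the miR-203 inhibitor, 5.08 with the miR-708 inhibitor, 31.3 with the miR-182 inhibitor and 31.5 in the control. The miR-708 inhibitor group was the lowest for both microRNA genes, and for Mir1191 the miR-182 inhibitor group also lay below the control.

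Snord55, a small nucleolar RNA, stood at 155 FPKM with the miR-203 inhibitor and 30.1 with the miR-708 inhibitor, against 68.5 in the control. The 12 most negative log2 ratios were those of Gm26247, Gm25994, Gm26083, Gm23268, Gm24715, Gm23813, Snord83b, Gm23968, Snora65, Arhgap27, Snord45c and Gm8648, from -3.21 to -1.76. Of these, 10 are short noncoding RNA genes, 1 is a pseudogene and 1, Arhgap27, is protein-coding. Arhgap27 alone of these 12 was called against the control in the authors' deposited tables. For Gm26247, Gm25994, Gm26083 and Snora65 the deposited q-values can stand for a missing test with both inhibitors. Gm26247, a small nucleolar RNA gene on chromosome 7, stood at 9.03 FPKM with the miR-203 inhibitor and 91.8 with the miR-708 inhibitor, against 8.47 with the miR-182 inhibitor and 50.1 in the control.

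Protein-coding genes passed the limit less often the higher they were expressed. With a mean of both groups under 2 FPKM, 49 of 1078 (4.55%) passed, against 40 of 3942 (1.01%) between 5 and 20 FPKM and 3 of 1082 (0.277%) above 100 FPKM. In the deposited tables some genes share 1 locus, and their reads may have been divided between them. Of the protein-coding genes with a locus of their own, 71 of 7357 (0.965%) passed the limit, against 79 of 3724 (2.12%) in shared loci. An example of the second kind is the locus of Gm20503 and Gng10 on chromosome 4. Gm20503 stood at 8.02 FPKM with the miR-203 inhibitor and 1.95 with the miR-708 inhibitor, while Gng10, a G protein gamma subunit, stood at 6.64 and 12.3 FPKM in the same order. These 2 genes lay in opposite directions, with log2 ratios of 1.61 and -0.80, and the authors' deposited tables called neither of them against the control.

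Among protein-coding genes with at least 5 FPKM, a ranking added after the values were seen, the 12 largest positive log2 ratios ran from 2.24 (Gm21961) to 0.90 (Kdm4b). Extl2, a glycosyltransferase of the exostosin family, stood at 15.2 FPKM with the miR-203 inhibitor, 5.67 with the miR-708 inhibitor, 6.32 with the miR-182 inhibitor and 5.62 in the control, a log2 ratio of 1.28. Guk1, guanylate kinase, stood at 87.8 FPKM with the miR-203 inhibitor, 38.9 with the miR-708 inhibitor, 60.5 with the miR-182 inhibitor and 59.0 in the control, a log2 ratio of 1.16. Guk1 thus lay above the control with one inhibitor and below it with the other, whereas Extl2 was near the control level with the miR-708 inhibitor. The authors' deposited tables called neither gene against the control. With the miR-203 inhibitor q was 0.839 for Guk1 and 0.421 for Extl2, and with the miR-708 inhibitor 0.649 and 0.997. Kdm4b, a histone lysine demethylase, stood at 89.2 FPKM with the miR-203 inhibitor, 47.5 with the miR-708 inhibitor, 64.5 with the miR-182 inhibitor and 56.8 in the control. Zfp523, a zinc finger gene, stood at 22.5 FPKM with the miR-203 inhibitor, 10.6 with the miR-708 inhibitor, 14.9 with the miR-182 inhibitor and 13.3 in the control. In the authors' deposited table Zfp523 (q = 0.0232) and Cxx1c (q = 0.0125) rose with the miR-203 inhibitor. Kdm4b was not called there (q = 0.0635 with the miR-203 inhibitor and 0.624 with the miR-708 inhibitor). Cxx1c, a gene derived from a retrotransposon Gag, stood at 11.3 FPKM with the miR-203 inhibitor and 5.12 with the miR-708 inhibitor, against 5.75 in the control.

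In the other direction the 12 protein-coding genes ran from -1.93 (Arhgap27) to -0.88 (Socs3). Arhgap27, a GTPase-activating protein, stood at 0.700 FPKM with the miR-203 inhibitor, 5.46 with the miR-708 inhibitor, 0.583 with the miR-182 inhibitor and 1.03 in the control. It rose with the miR-708 inhibitor (q = 0.00327) and was not called with the miR-203 inhibitor (q = 0.771) in the authors' deposited tables. Fgf13, an FGF family member that stays inside the cell and binds sodium channels, stood at 3.66 FPKM with the miR-203 inhibitor, 8.83 with the miR-708 inhibitor, 6.18 with the miR-182 inhibitor and 2.72 in the control. Fgf13 also rose with the miR-708 inhibitor in the authors' deposited table (q = 0.00176).

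Ttc7, part of the complex that anchors a phosphatidylinositol kinase at the plasma membrane, stood at 2.88 FPKM with the miR-203 inhibitor, 7.78 with the miR-708 inhibitor, 6.51 with the miR-182 inhibitor and 8.23 in the control. It fell with the miR-203 inhibitor in the authors' deposited table (q = 0.00176). Zhx2, a homeobox and zinc finger repressor, stood at 3.73 FPKM with the miR-203 inhibitor, 10.2 with the miR-708 inhibitor, 8.53 with the miR-182 inhibitor and 6.04 in the control. The authors' deposited tables gave Zhx2 a q of 0.0310 with the miR-203 inhibitor, a fall, and 0.0771 with the miR-708 inhibitor. The differences in this direction thus came about in more than 1 way, with the miR-708 inhibitor above the control for Arhgap27 and Fgf13 and the miR-203 inhibitor below it for Ttc7.

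Notch1, the receptor of a cell-contact signalling pathway, stood at 6.50 FPKM with the miR-203 inhibitor, 14.0 with the miR-708 inhibitor, 7.38 with the miR-182 inhibitor and 9.81 in the control. The authors' deposited tables did not call Notch1 (q = 0.340 with the miR-203 inhibitor and 0.554 with the miR-708 inhibitor). Socs3, an inhibitor of JAK-STAT signalling by cytokines, stood at 4.11 FPKM with the miR-203 inhibitor, 8.43 with the miR-708 inhibitor, 9.19 with the miR-182 inhibitor and 2.90 in the control. It was not called either (q = 0.949 and 0.584 in the authors' deposited tables). In the same group of 12, the mitochondrial helicase Supv3l1 stood at 80.6 FPKM with the miR-203 inhibitor and 157 with the miR-708 inhibitor. It stood at 94.7 FPKM with the miR-182 inhibitor and 103 in the control. The mitochondrial ribosomal RNA methyltransferase Mrm1 stood at 8.47 FPKM with the miR-203 inhibitor and 20.5 with the miR-708 inhibitor. With the miR-182 inhibitor Mrm1 stood at 8.88 FPKM, and in the control at 25.0 FPKM. Gmppb, an enzyme of GDP-mannose synthesis, stood at 16.6 FPKM with the miR-203 inhibitor and 37.6 with the miR-708 inhibitor, against 23.8 in the control. The authors' deposited tables called none of Supv3l1, Mrm1 and Gmppb against the control with either inhibitor. Notch1, Supv3l1 and Gmppb lie in shared loci.

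**Figure D3:**
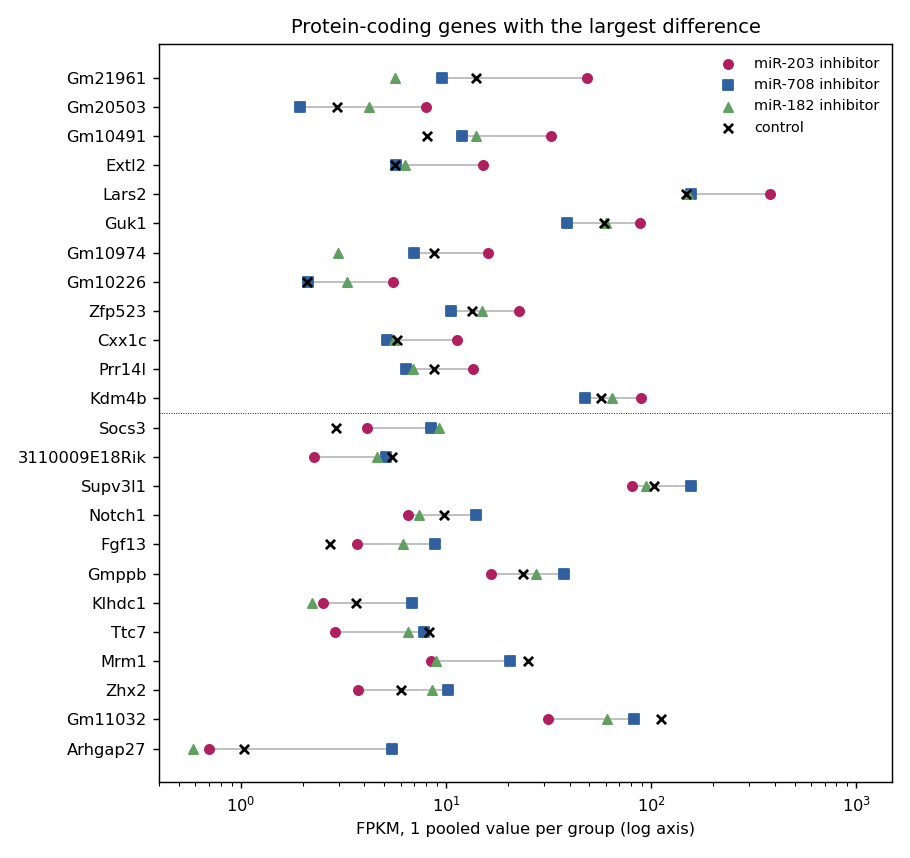
FPKM, 1 pooled value per group on a log axis, of the 12 protein-coding genes with the largest positive log2 ratio (above the dotted line) and the 12 with the largest negative one (below it), at 5 FPKM or more in either group; the grey line joins the miR-203 and miR-708 inhibitor values. The control lies near the miR-708 inhibitor for Extl2, Lars2 and Cxx1c and near the miR-203 inhibitor for Arhgap27 and Fgf13.

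Genes past the limit carried a call of the authors against the control about as often as measured genes in general. In the authors' deposited tables for these inhibitors, 1275 of the 12811 measured genes (9.95%) were called in at least 1 table. Of the 435 genes past the limit, the authors' deposited tables called 41 (9.43%) in at least 1 table and 3 in both. At 5 FPKM or more, 365 genes were called in exactly 1 of these deposited tables, and 24 of them passed 1.5-fold between the inhibitors. The comparisons share the control samples, and the difference between the inhibitors was not itself tested by the authors.

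Brown fat genes stood at similar levels with both inhibitors. Of 26 measured brown and thermogenic genes none passed the limit, and the median log2 ratio was 0.072, with 19 members above 0. Of all measured genes, 6713 of 12811 lay above 0. Ucp1 stood at 159 FPKM with the miR-203 inhibitor and 146 with the miR-708 inhibitor, and Cidea, which coats lipid droplets, at 157 and 146 FPKM. The control values were 203.03 FPKM for Ucp1 and 297 FPKM for Cidea, so both inhibitor groups lay on the same side of the control. Prdm16, which specifies brown fat, stood at 6.11 FPKM with the miR-203 inhibitor and 4.91 with the miR-708 inhibitor, and the coactivator Ppargc1a at 23.1 and 22.5 FPKM. The highest log2 ratio of the list was 0.44, for the acyl-CoA thioesterase Acot11, at 1.65 FPKM with the miR-203 inhibitor and 0.946 with the miR-708 inhibitor. Pdk4, which restrains glucose oxidation, had the same log2 ratio of 0.44, at 93.8 FPKM with the miR-203 inhibitor and 68.8 with the miR-708 inhibitor, against 127 in the control. Pdk4 fell with the miR-708 inhibitor (q = 0.0355) and was not called with the miR-203 inhibitor (q = 0.522) in the authors' deposited tables.

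General adipocyte genes had a median log2 ratio of 0.038 over 25 measured members, from -0.21 for Fabp4 to 0.20 for the transcription factor Cebpb, and none passed the limit. The 5 measured genes selective for white fat had a median of -0.0010. Pparg, the main transcription factor of fat cell differentiation, stood at 130.1 FPKM with the miR-203 inhibitor and 140.4 with the miR-708 inhibitor, and its partner Cebpa at 307 and 298 FPKM. Progenitor genes, which mark fat cell precursors, had a median of 0.062 over 13 members. Pdgfra, a growth factor receptor of precursors, stood at 16.6 FPKM with the miR-203 inhibitor and 17.4 with the miR-708 inhibitor, against 10.9 in the control, and Dlk1, the preadipocyte factor, at 97.7 and 93.1 FPKM, against 58.9 in the control. Extracellular matrix genes had a median of 0.049, with 25 of 31 members above 0 and none past the limit. Col1a1, a collagen chain, stood at 0.16 and the matrix enzyme Mmp3 at 0.20 on the log2 ratio, while Spp1, osteopontin, stood at -0.29 as the lowest member. Cell cycle genes had a median of -0.041 over 28 members, with cyclin Ccne2 lowest at -0.37.

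Interferon-stimulated genes had the lowest median of the lists with at least 5 measured members, -0.096 over 20 members, of which 14 lay below 0. None passed the limit. Irf7, an amplifier of the interferon response, stood at 6.23 FPKM with the miR-203 inhibitor, 9.33 with the miR-708 inhibitor, 20.9 with the miR-182 inhibitor and 2.70 in the control, a log2 ratio of -0.51. Dhx58, an RNA sensor, lay the other way at 11.8 FPKM with the miR-203 inhibitor and 7.93 with the miR-708 inhibitor, a log2 ratio of 0.52, and the locus of each of these genes is shared with other genes. Xaf1 rose with the miR-708 inhibitor (q = 0.0287) and was not called with the miR-203 inhibitor (q = 0.389) in the authors' deposited tables, at 1.27 FPKM with the miR-203 inhibitor, 2.24 with the miR-708 inhibitor and 0.640 in the control. Ddx58, another RNA sensor, lay the other way, called higher in the authors' deposited tables with the miR-203 inhibitor (q = 0.0181) and not with the miR-708 inhibitor (q = 0.358), at 6.32 FPKM with the miR-203 inhibitor, 5.10 with the miR-708 inhibitor and 3.77 in the control. So was Gbp3, an interferon-induced GTPase, with q = 0.0341 for the miR-203 inhibitor and 0.0536 for the miR-708 inhibitor in the authors' deposited tables. Class I antigen presentation genes had a median of 0.030 over 15 members, from -0.15 for H2-Q7 to 0.25 for the peptide transporter Tap2.

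Inflammatory and acute phase genes had a median of -0.046, with 10 of 13 members below 0 and 1 past the limit. That gene, Il1rn, an antagonist of interleukin signalling, stood near the minimum at 0.357 FPKM with the miR-203 inhibitor and 1.07 with the miR-708 inhibitor. Of 16 immediate early genes, which respond within minutes to stimulation, the nuclear receptor Nr4a2 passed the limit, at 1.87 FPKM with the miR-203 inhibitor and 4.12 with the miR-708 inhibitor. With a pseudocount of 5, Il1rn (-0.18) and Nr4a2 (-0.41) came under the limit. The median of the immediate early list was 0.096, and Junb stood highest at 0.28. Glucocorticoid-responsive genes had a median of 0.12 over 13 members, with 10 above 0. The metallothionein Mt1 stood at 3031 FPKM with the miR-203 inhibitor and 2573 with the miR-708 inhibitor, against 3869 in the control, and fell with the miR-708 inhibitor in the authors' deposited table (q = 0.00176) with a q of 0.0560 for the miR-203 inhibitor. Clock genes had a median of 0.081, with 15 of 17 members above 0. Npas2, a partner of Bmal1 like Clock, stood highest in that list at 4.74 FPKM with the miR-203 inhibitor and 3.31 with the miR-708 inhibitor.

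Metabolic lists lay close to 0. The medians were -0.019 for 48 nuclear genes of oxidative phosphorylation, 0.015 for 18 genes of the TCA cycle, 0.015 for 22 genes of fatty acid oxidation, 0.036 for 21 genes of lipid synthesis, 0.0055 for 23 cholesterol genes and 0.0062 for 20 glycolysis and hypoxia genes. No member of these lists passed the limit. Among oxidative phosphorylation genes, Ndufc1 of complex I stood lowest at -0.21 and Atp5j of the ATP synthase highest at 0.34. Srebf1, the master regulator of lipid synthesis genes, stood at 841 FPKM with the miR-203 inhibitor and 731 with the miR-708 inhibitor. Insig1, which retains its precursor in the endoplasmic reticulum, stood at 269.6 FPKM with the miR-203 inhibitor and 273 with the miR-708 inhibitor. Antioxidant genes had a median of 0.046 over 20 members, stress genes of the endoplasmic reticulum one of 0.00046 over 20, and heat shock genes one of -0.069 over 9, of which 7 lay below 0. The 15 measured genes of microRNA processing and action had a median of 0.018, with 9 above 0 and none past the limit.

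**Figure D4:**
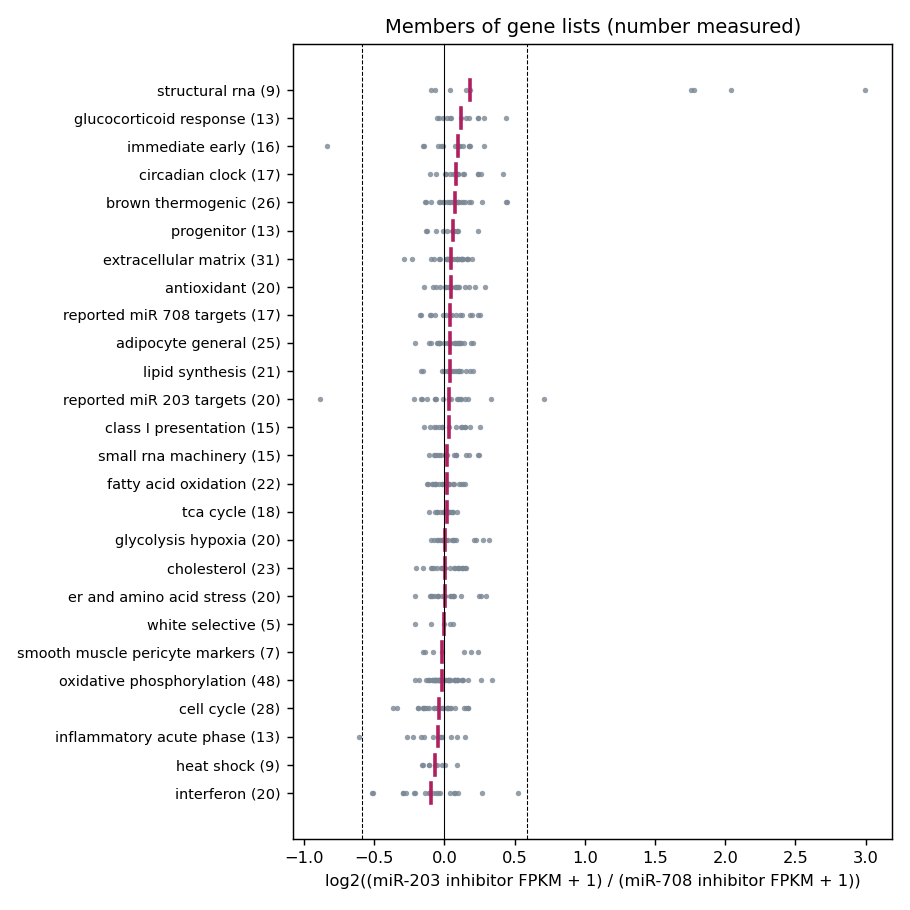
Log2 ratio of each measured member (points) and the median (vertical bar) of the gene lists with at least 5 measured members; dashed lines mark 1.5-fold. The members past 1.5-fold are 4 structural RNAs, Nr4a2, Il1rn, Socs3 and Runx2, of which the last 4 come under the limit with a pseudocount of 5.

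Messenger RNAs of the mitochondrial genome lay together below 0. All 12 measured mitochondrial messenger RNAs were lower with the miR-203 inhibitor, with log2 ratios between -0.25 and -0.05 and a median of -0.17, and none passed the limit. Summed, they stood at 70222 FPKM with the miR-203 inhibitor, 79839 with the miR-708 inhibitor, 63113 with the miR-182 inhibitor and 71413 in the control. Both mitochondrial ribosomal RNAs lay slightly the other way, mt-Rnr1 at 0.13 and mt-Rnr2 at 0.16. The 22 mitochondrial transfer RNAs had a median of -0.23, with 14 below 0, and 1, mt-Tf, passed the limit at 302 FPKM with the miR-203 inhibitor and 136 with the miR-708 inhibitor, against 429 in the control. Cytosolic ribosomal protein genes had a median of -0.088 over 82 members, with 66 below 0 and none past the limit. The mitochondrial and ribosomal protein groups were added after values of the contrast had been seen.

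Seed matches were counted in the 3′ untranslated regions of 10982 protein-coding genes, using the longest annotated region of each gene (GENCODE, GRCm38). The match searched on the transcript strand was CATTTCA for miR-203-3p and AGCTCCT for miR-708-5p. For miR-203-3p, 1847 genes held at least 1 match, with a median log2 ratio of 0.0074 against 0.0051 for the 9135 genes without. With at least 2 matches (380 genes) it was 0.013, and with a match followed by A (538 genes), a stronger kind of site, 0.0027. All 3 medians lay near the 0.0055 of all 10982 genes, the first 2 slightly above it and the last slightly below.

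For miR-708-5p, 1694 genes held at least 1 match, with a median log2 ratio of 0.025 against 0.0011 for the 9288 genes without, and 59.1% of them lay above 0 against 50.4%. With at least 2 matches (297 genes) the median was 0.038, and with a match followed by A (273 genes) 0.018. A positive log2 ratio means a lower level with the miR-708 inhibitor. Blocking a microRNA is generally expected to raise messengers with matches, so these medians lay on the other side. Against the control, which both comparisons share, the median of genes with at least 1 match was -0.014 for the miR-203 inhibitor and -0.037 for the miR-708 inhibitor, and that of genes without was -0.0083 for each. For genes with at least 2 matches it was -0.021 for the miR-203 inhibitor and -0.046 for the miR-708 inhibitor. For genes with a match followed by A it was 0.0027 and 0.00052 in the same order. The groups of matches thus did not share a direction against the control. Genes with at least 2 matches to the seed of miR-182-5p, which neither inhibitor of the contrast addresses, had a median of 0.037 (204 genes). Genes with matches also have longer regions, with a median of 2324 bases for genes with a miR-708-5p match against 983 without, and the part of length in these medians was not tested.

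**Figure D5:**
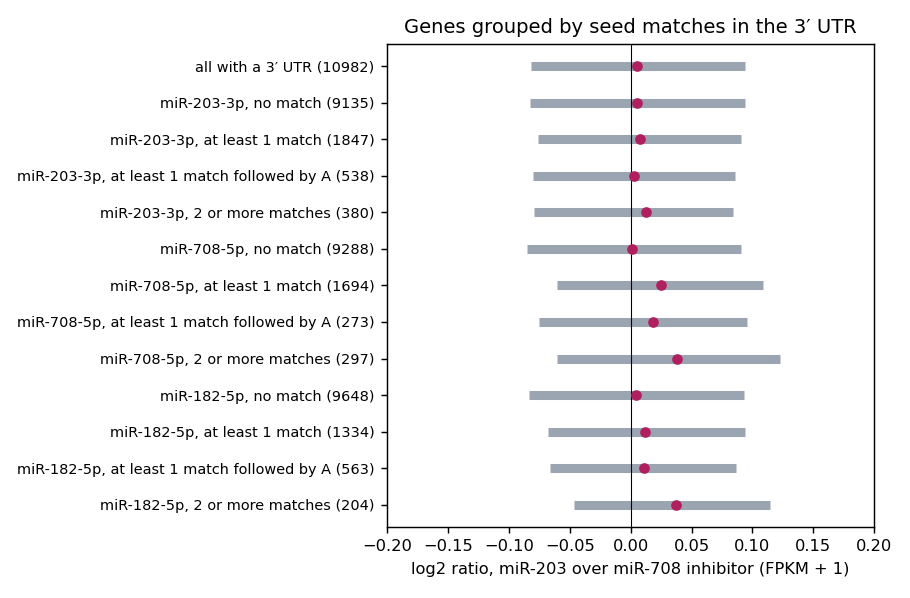
Median log2 ratio (points) and the span between the 25th and 75th percentile of genes (bars) for genes grouped by matches to the seeds of miR-203-3p, miR-708-5p and miR-182-5p in the 3′ untranslated region, with the number of genes in parentheses. The medians drawn lie between 0.0011 and 0.038, inside bars that are several times wider.

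The sites found in the 24 protein-coding genes with the largest log2 ratios are shown, since they are where a direct effect of an inhibitor would be looked for first. Of the 8 positive genes with a region, Gm20503 held a miR-203-3p match and Prr14l a miR-708-5p match. Of the 11 negative genes with a region, Klhdc1 and Socs3 held a miR-203-3p match and Ttc7, Gmppb and Notch1 a miR-708-5p match. Over all 10982 genes, 16.8% held a miR-203-3p match and 15.4% a miR-708-5p match. Capitals mark the match and lower case the flanking transcript bases (GENCODE transcripts, GRCm38, 1-based coordinates of the match).
Gm20503, miR-203-3p match, chr4:59041327-59041333, plus strand: actgggttttgCATTTCAggac
Klhdc1, miR-203-3p match, chr12:69284436-69284442, plus strand: cagtcagagttCATTTCAgtgt
Socs3, miR-203-3p match, chr11:117966123-117966129, minus strand: cagaaaagaaaCATTTCAgtaa
Prr14l, miR-708-5p match, chr5:32793228-32793234, minus strand: gtccacacgaaAGCTCCTctcc
Ttc7, miR-708-5p match, chr17:87380267-87380273, plus strand: agctgggcctaAGCTCCTgact
Gmppb, miR-708-5p match, chr9:108052281-108052287, plus strand: ccacctgggccAGCTCCTcagc
Notch1, miR-708-5p match, chr2:26458249-26458255, minus strand: gccgaaccagtAGCTCCTaaga
Of these 7 matches, that of Notch1 is followed by A. The direction of each gene was fixed by the ranking and says nothing of its match. The Gm20503 match is the same stretch of genome as the match in Gng10, which lay the other way. A match is a description of the sequence and was not tested for use by a microRNA.

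Genes reported elsewhere as targets gave no common direction. Of 20 measured genes reported for miR-203, the median log2 ratio was 0.030, with 11 above 0. Runx2, a transcription factor of bone cells, passed the limit upwards at 2.70 FPKM with the miR-203 inhibitor and 1.27 with the miR-708 inhibitor, and Socs3 passed it downwards. With a pseudocount of 5 both came under the limit, at 0.30 for Runx2 and -0.56 for Socs3. The authors' deposited tables called neither gene against the control. Runx2 holds no CATTTCA match in the region searched. Zfp148, a zinc finger gene with 4 such matches, the most in the list, stood at 11.6 FPKM with the miR-203 inhibitor, 11.3 with the miR-708 inhibitor and 12.8 in the control. Zfp281, a related gene with 3 matches, stood at 3.30 FPKM with the miR-203 inhibitor, 3.52 with the miR-708 inhibitor and 3.30 in the control. Src, a tyrosine kinase with 2 matches, stood at 4.63 FPKM with the miR-203 inhibitor and 4.90 with the miR-708 inhibitor, against 7.10 in the control.

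Of 17 measured genes reported for miR-708, the median was 0.042, with 11 above 0 and none past the limit. Tmem88, an inhibitor of Wnt signalling with 3 AGCTCCT matches, stood at 6.49 FPKM with the miR-203 inhibitor, 7.45 with the miR-708 inhibitor and 7.87 in the control. Nnat, neuronatin, with 1 match, stood at 11.2 FPKM with the miR-203 inhibitor, 9.64 with the miR-708 inhibitor and 13.3 in the control. The sites printed are examples from these reported targets.
Zfp148, miR-203-3p match, chr16:33501525-33501531, plus strand: tttcatagctaCATTTCAatga
Zfp281, miR-203-3p match, chr1:136628546-136628552, plus strand: gggatcgaaaaCATTTCAagtg
Tmem88, miR-708-5p match, chr11:69396809-69396815, minus strand: ctgctgccttaAGCTCCTaact
Nnat, miR-708-5p match, chr2:157562420-157562426, plus strand: gctagattgtaAGCTCCTggag
The Zfp148, Zfp281 and Tmem88 sites are followed by A, and none of these genes lay beyond 0.2 in size on the log2 ratio.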

How the data were processed

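Per the submitters' processing notes, reads were handled with TopHat2 version 2.0.9 and Cuffdiff version 2.1.1 on mouse build mm10. The sources used here do not give the gene annotation, strand use, library-size scaling or program options, and the depth is unknown. The authors deposited 3 tables of 18933 genes, each setting 1 inhibitor against the same control, with 1 FPKM per group, a log2 fold change, a p-value and a q-value. Genes were joined on their identifier, and 23 symbols turned into dates were restored. The log2 ratio of the contrast was computed here with a pseudocount of 1, which understates differences of low genes, at a minimum of 1 FPKM in either group. The authors' p-values and q-values compare each inhibitor with the control, and their smallest q-value is 0.00176. Since the labels do not say whether samples of a group were separate cultures, they may measure technical spread only. The labels give no batch.

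RNA classes and positions came from GENCODE annotation of GRCm38, the assembly of mm10, which held 12583 of the measured genes. The genes named were the 12 with the largest log2 ratio in each direction at 5 FPKM or more. The same ranking over protein-coding genes was added after the values were seen. A fixed set of 11 genes of brown fat, general adipocytes, precursors and cholesterol control was named as well. So were the highest and lowest member of each list, every member past 1.5-fold, and 6 genes in each direction called for 1 inhibitor only. A few more were named after their values were seen. Members, gene lists and rules were chosen with earlier results of these data known. The computation was tested on simulated data (Python 3.11.15, pandas 2.3.3). Other pseudocounts, minimum levels, centring, a limit of 2-fold and leaving out shared loci were tried as alternatives.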

Additional observations from a re-analysis of the deposited data

How the results depend on the processing

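No paired analysis was possible because the deposited tables hold 1 pooled value per group; for the same reason no sample could be left out in turn. The counts past the limit (264 higher, 171 lower) became 433 and 327 with a pseudocount of 0.1, 126 and 59 with a pseudocount of 5, 161 and 87 at 5 FPKM or more, 105 and 83 without genes in shared loci, and 104 and 48 at a limit of 2-fold. Without short noncoding RNAs, an alternative chosen after seeing the data, they were 185 and 131. With a pseudocount of 5, Socs3 (-0.56), Nr4a2 (-0.41), Runx2 (0.30), Il1rn (-0.18), Gng10 (-0.57), 3110009E18Rik (-0.47) and Gm10226 (0.56) came under the limit, and with 0.1 Acot11 (0.74) passed it. The structural RNA median of 0.18 became 1.75 without shared loci and 0.039 without short noncoding RNAs, as members drop out. Among marker lists of 1 to 7 measured members, the red blood cell median was -0.35 with a pseudocount of 0.1 and -0.069 with 5, the macrophage median 0.10 with 5 and 0.089 with no minimum, the skeletal muscle median -0.084 with 5 and -0.053 with no minimum, and the smooth muscle median 0.14 at 5 FPKM or more. No result tried changed sign past the limit. Pooled values of unknown depth limit what can be said of genes near 1 FPKM.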

Other observations

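The log2 ratio of the miR-203 over the miR-708 inhibitor was also set beside that of the miR-182 inhibitor over the control, which shares no library with it. Across the 12811 measured genes Pearson's r was -0.065 and Spearman's rho -0.073, and over 8197 protein-coding genes with a mean of at least 5 FPKM they were -0.070 and -0.067. These are descriptions across genes, which are not independent replicates. Histone genes, 21 measured, had a median log2 ratio of -0.0014, with 1 member past the limit in each direction.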
